A study of Mus musculus with 8 samples.

Results

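The 60 gene entries described here are the chemokine ligands and chemokine receptors of the mouse genome, chosen by gene symbol from the 22367 protein-coding genes of GENCODE vM1 on the mm9 assembly. They comprised 38 ligands, of which 24 are CC ligands, 12 are C-X-C ligands and 2 are the CX3C ligand Cx3cl1 and the XC ligand Xcl1, and 22 receptors, of which 4 are entries of the atypical receptors Ccrl1, Ccrl2 and Cxcr7. They carried 58 distinct symbols, since Ccl25 and Ccrl1 each have 2 overlapping gene models. The chromatin came from subcutaneous isografts of Lewis lung carcinoma (LLC), a mouse lung tumor line, grown in young adult female C57BL/6J mice. LLC-NR isografts are sensitive to VEGF-Trap, a soluble decoy for vascular endothelial growth factor, and LLC-R isografts came from a subline selected in mice by repeated rounds of VEGF-Trap. The methods name no VEGF-Trap treatment of the mice that carried these isografts, and LLC-R stands for a single selected subline. Tissue was cross-linked with formaldehyde and digested with micrococcal nuclease, and nucleosomes were immunoprecipitated for H3K4me3, H3K9ac, H3K27me3 or H3K36me3 and sequenced.

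Each mark was profiled by 1 library from each line, which makes 8 libraries. A difference between LLC-R and LLC-NR therefore has no replicate check, no test was possible, and every comparison below is between libraries. The deposited lists give the position of each peak, 147 bp wide, with no height and no strand, and hold from 5660458 peaks (H3K4me3, LLC-R) to 9101721 peaks (H3K27me3, LLC-R). The measure of a mark at a gene was how many peak midpoints its promoter held, where the promoter ran from 1 kb before the transcription start site (TSS) to 0.5 kb past it. This measure saturates, since no promoter of the genome held more than 9 peaks of a mark. Where 2 numbers are given for a gene and a mark, the first is from LLC-NR and the second from LLC-R. An isograft contains tumor cells and cells of the host, so a mark that is lost from a cell type and a cell type that is less frequent cannot be told apart.

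Chemokines are small secreted proteins that guide leukocytes along concentration gradients. They bind receptors that span the cell membrane, named after the spacing of cysteines in the ligands they bind, and several also act on endothelial cells, where C-X-C ligands with the ELR motif favor angiogenesis and those induced by interferon oppose it. Inflammatory chemokine genes lie in tight clusters that arose by duplication and are switched on by NF-kappaB and interferon regulatory factors, whereas homeostatic ones such as Cxcl12 are transcribed in stroma without a stimulus. H3K4me3 and H3K9ac mark promoters of transcribed genes, H3K27me3 marks genes silenced by Polycomb, and H3K36me3 is laid down along transcribed gene bodies.

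The 250 bases upstream of the most upstream annotated TSS are shown for 5 genes, because these windows hold the letters searched for in inducible promoters or, for Cxcl12, none of them. The sequences are from mm9, 5′ to 3′ on the strand of the gene, and capitals mark kappaB, interferon-stimulated response element (ISRE) or TATA matches on either strand. Cxcl1 is at chr5:91320017-91320266 (plus strand), Cxcl10 at chr5:92777916-92778165 (minus), Cxcl12 at chr6:117118303-117118552 (plus), Cx3cl1 at chr8:97295659-97295908 (plus) and Cxcr4 at chr1:130488871-130489120 (minus).
Cxcl1: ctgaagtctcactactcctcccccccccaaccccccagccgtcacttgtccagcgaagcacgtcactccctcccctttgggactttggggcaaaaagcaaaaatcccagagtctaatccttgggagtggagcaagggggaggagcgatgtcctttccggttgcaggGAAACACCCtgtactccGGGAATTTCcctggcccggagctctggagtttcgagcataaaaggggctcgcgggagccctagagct
Cxcl10: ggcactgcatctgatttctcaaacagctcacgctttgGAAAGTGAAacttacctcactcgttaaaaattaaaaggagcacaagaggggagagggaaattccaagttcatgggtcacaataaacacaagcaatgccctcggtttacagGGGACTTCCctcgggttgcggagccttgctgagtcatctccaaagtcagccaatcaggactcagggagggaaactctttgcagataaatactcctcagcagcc
Cxcl12: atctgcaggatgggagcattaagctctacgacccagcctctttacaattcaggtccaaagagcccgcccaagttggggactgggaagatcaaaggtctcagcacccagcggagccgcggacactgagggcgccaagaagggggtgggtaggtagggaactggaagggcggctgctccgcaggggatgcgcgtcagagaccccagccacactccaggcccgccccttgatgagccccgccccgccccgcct
Cx3cl1: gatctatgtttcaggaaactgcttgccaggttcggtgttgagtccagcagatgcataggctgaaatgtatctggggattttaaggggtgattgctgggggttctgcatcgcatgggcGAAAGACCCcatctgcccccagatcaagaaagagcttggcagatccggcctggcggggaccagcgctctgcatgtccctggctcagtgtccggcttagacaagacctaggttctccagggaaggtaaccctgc
Cxcr4: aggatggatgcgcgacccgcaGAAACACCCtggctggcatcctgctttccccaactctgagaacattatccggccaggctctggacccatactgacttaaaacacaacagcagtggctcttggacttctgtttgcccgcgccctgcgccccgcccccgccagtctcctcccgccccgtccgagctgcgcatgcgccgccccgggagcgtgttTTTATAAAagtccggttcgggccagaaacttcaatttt

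Cxcl1, a neutrophil attractant, had GGGAATTTC from -67 to -59 and GAAACACCC from -84 to -76, which are kappaB matches on either strand. Cxcl10, an interferon-induced attractant of T cells, had the ISRE match GAAAGTGAA from -213 to -205 and the kappaB match GGGACTTCC from -103 to -95. Cx3cl1, the membrane-bound ligand fractalkine, had GAAAGACCC from -133 to -125, and Cxcr4, the receptor of Cxcl12, had GAAACACCC from -229 to -221 and TATAAA from -36 to -31, which overlaps its own reverse match TTTATA. Peaks covered these letters in different libraries, counting only matches that lie wholly within a peak. In each library, peaks covered from 32.5% (H3K4me3, LLC-R) to 52.3% (H3K27me3, LLC-R) of the known bases of the genome. Such coverage alone puts many short stretches under a peak, and no excess over it was tested. The kappaB match of Cx3cl1 was under a peak of H3K4me3, of H3K27me3 and of H3K36me3 in LLC-R and wholly under none in LLC-NR, where an H3K9ac peak with its midpoint at -202 bp covered part of it. The kappaB match of Cxcl10 was wholly under a peak in 0 of 8 libraries, while its ISRE match was under a peak in 5. Both matches of Cxcl1 were under an H3K9ac peak of each line and under an H3K27me3 peak in LLC-R.

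The same letters were searched for on both strands in the 300 bases of mm9 from 250 before the TSS to 50 past it. This was done for the 45 entries whose genes are also in a RefSeq promoter table (GRCm38.p6). A RefSeq start was found in the promoter of 42 of them, and in 37 it lay within 50 bp of the TSS used. At Cx3cl1 it lay 171 bp downstream, so the window and positions printed for this gene depend on the TSS used. GGGNNTTTC was present in 12 of 45, against 4.18% of the windows of all 22367 promoters, and GGGNNTTCC in 7, against 6.13%. Either was found in 16 of 45 (35.6%), against 9.67% of all. GAAANNGAA was found in 8 of 45, against 8.99%, and TATAAA in 12 of 45, against 13.4%. The 16 entries with a kappaB match comprised 11 ligands, namely Cxcl1, Cxcl2, Cxcl3, Cxcl9, Cxcl10, Ccl9, Ccl19, Ccl20, Ccl25, Xcl1 and Cx3cl1, and the receptors Ccr3, Ccrl1, Cxcr2, Cxcr3 and Cxcr4. A match is a run of letters and not a measured binding site, and longer or other kappaB spellings were not searched for or marked.

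Chemokine promoters were mostly CpG-poor. By the CpG rule of the study, 9 of 60 were CpG-rich (HCP), 14 were intermediate (ICP) and 37 (61.7%) were CpG-poor (LCP), while 28.4% of all promoters were LCP and 53.9% were HCP. The CC ligands were LCP in 18 of 24 and the conventional receptors in 13 of 18, whereas the C-X-C ligands were split evenly, with 4 in each class. The HCP members were Cxcl5, Cxcl12, Cxcl14, Cxcl16, Ccl25 (1 entry), Ccl27a, Cx3cl1, Ccr9 and Cxcr4.

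The promoters of 5 ligands could not be measured. Ccl19, Ccl21a, Ccl21b and Ccl21c, ligands of Ccr7 that draw dendritic cells and naive T cells to lymph nodes, and Ccl27b, a copy of the skin chemokine gene Ccl27a, held 0 peaks of every mark in all 8 libraries. All of the 36-base words in these promoters occur more than once in mm9, so no read of that length could map uniquely there. Of 630 promoters of the genome without a peak in any library, 629 consisted mostly of such words. Ccl27a, with 59% repeated words, had the next lowest sum over all marks and libraries, with 3 and 2 H3K4me3, 1 and 3 H3K9ac and 4 and 4 H3K27me3 peaks. The remaining 54 entries held at least 1 peak of each mark in each library.

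**Figure D1:**
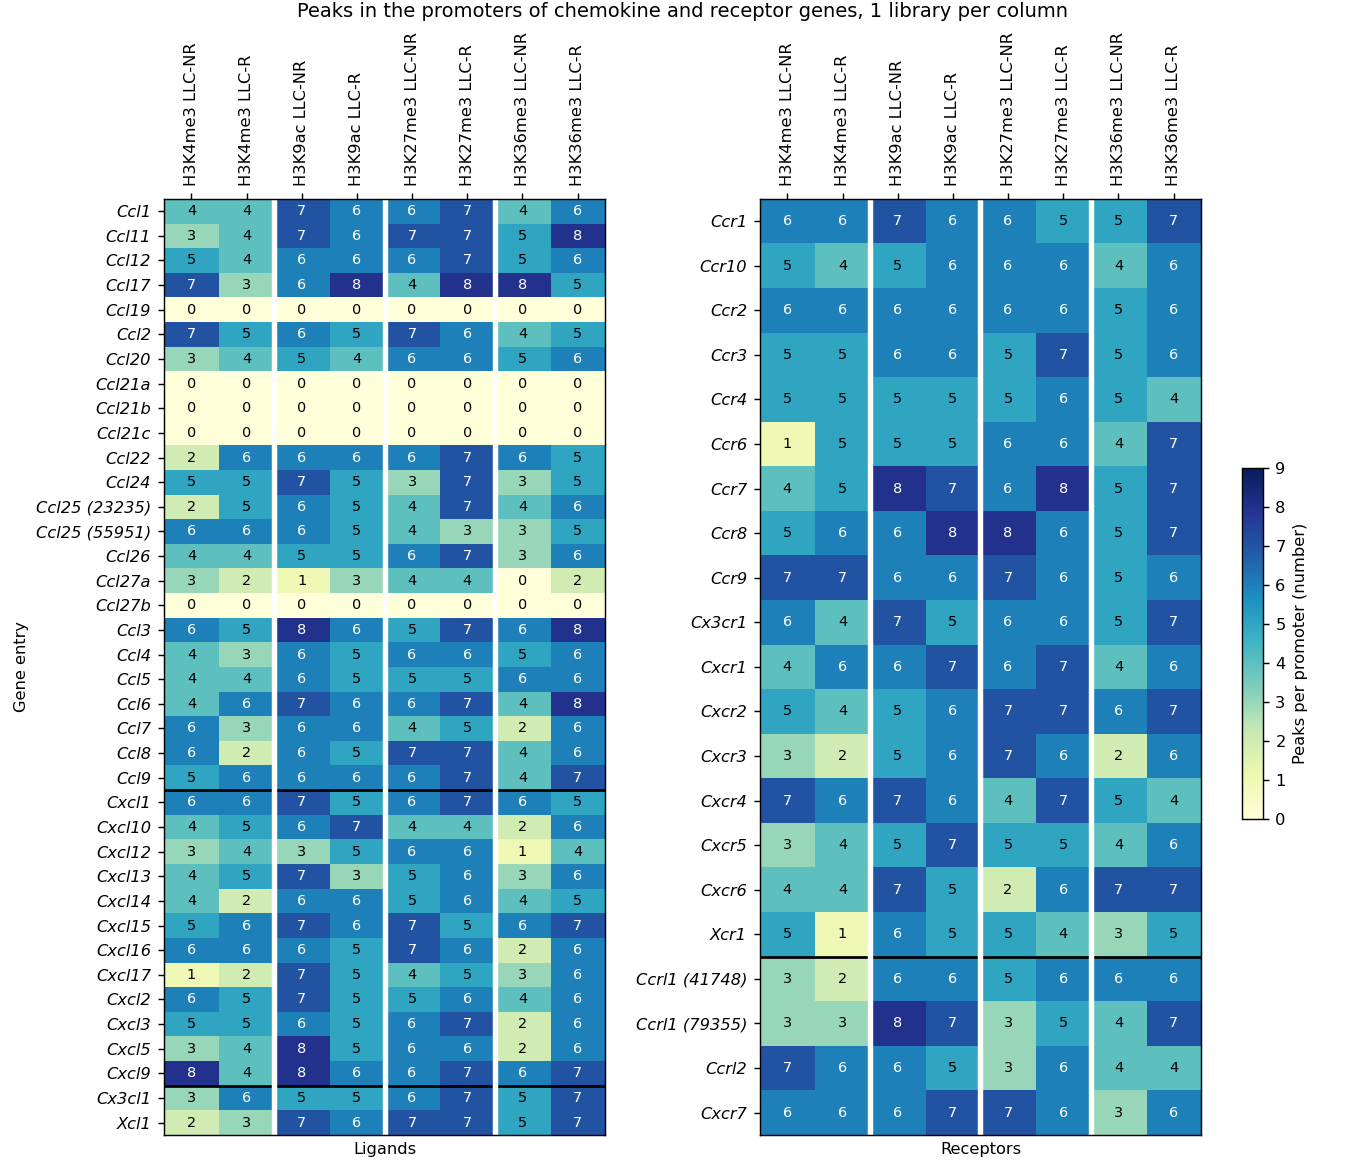
Number of peaks in the promoters of 59 of the 60 gene entries (rows; ligands on the left, receptors on the right, black lines between classes) in each of the 8 libraries (columns); color and digit both give the number, from 0 to 9, and double entries carry the last 5 digits of their Ensembl identifier. There are 5 rows at 0 throughout, and over the 54 entries with mostly unique words the H3K4me3 column of LLC-NR varies most (SD of 1.61 peaks).

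Of the 60 promoters, 29 (LLC-NR) and 28 (LLC-R) held at least the genome's mean number of H3K4me3 peaks, against 63.8% and 58.8% of all promoters. The median was 4 peaks in both lines, with a range from 0 to 8 for LLC-NR and from 0 to 7 for LLC-R. Over all promoters it was 5 in both lines. The members' median counts the unmeasurable promoters as 0. Among promoters with at most 50% repeated words the medians were 5 and 5 over 54 members and 6 and 5 over all. The medians were thus equal in LLC-R, but a gap in shares was left in each line. Of these 54 members, 53.7% and 51.9% reached the mean, against 67.9% and 62.6% of all such promoters. H3K9ac was at or above its mean in 44 and 52 members, against 62.2% and 70.4%. H3K27me3 was at or above its mean in 43 and 44 members, against 56.5% and 58.7%. Within CpG-poor promoters the order was different: the LCP members had a median of 4 H3K4me3 peaks in each line, against 3 for all LCPs, and 17 of 37 in LLC-NR reached the mean, against 27.5% of all LCPs.

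Background windows had the same length and lay at least 5 kb from the TSS used for any protein-coding gene. They can lie in gene bodies or at other starts, and windows without a peak in any library were left out. Promoters without a peak were kept, so the sets differ in this. Against these windows, the 60 promoters had 1.24-fold (LLC-NR) and 1.20-fold (LLC-R) the H3K4me3 peaks, compared with 1.45-fold and 1.36-fold for all promoters. For H3K9ac both values were 1.09-fold, compared with 1.06-fold and 1.04-fold. For H3K27me3 they were 1.15-fold and 1.02-fold, compared with 1.03-fold and 0.983-fold. Without the 6 members of mostly repeated words, the 54 others reached 1.36-fold and 1.33-fold for H3K4me3 and 1.26-fold and 1.12-fold for H3K27me3. The excess over background was thus below 1.4-fold for every mark, and a peak in a promoter does not by itself mark it as enriched.

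**Figure D2:**
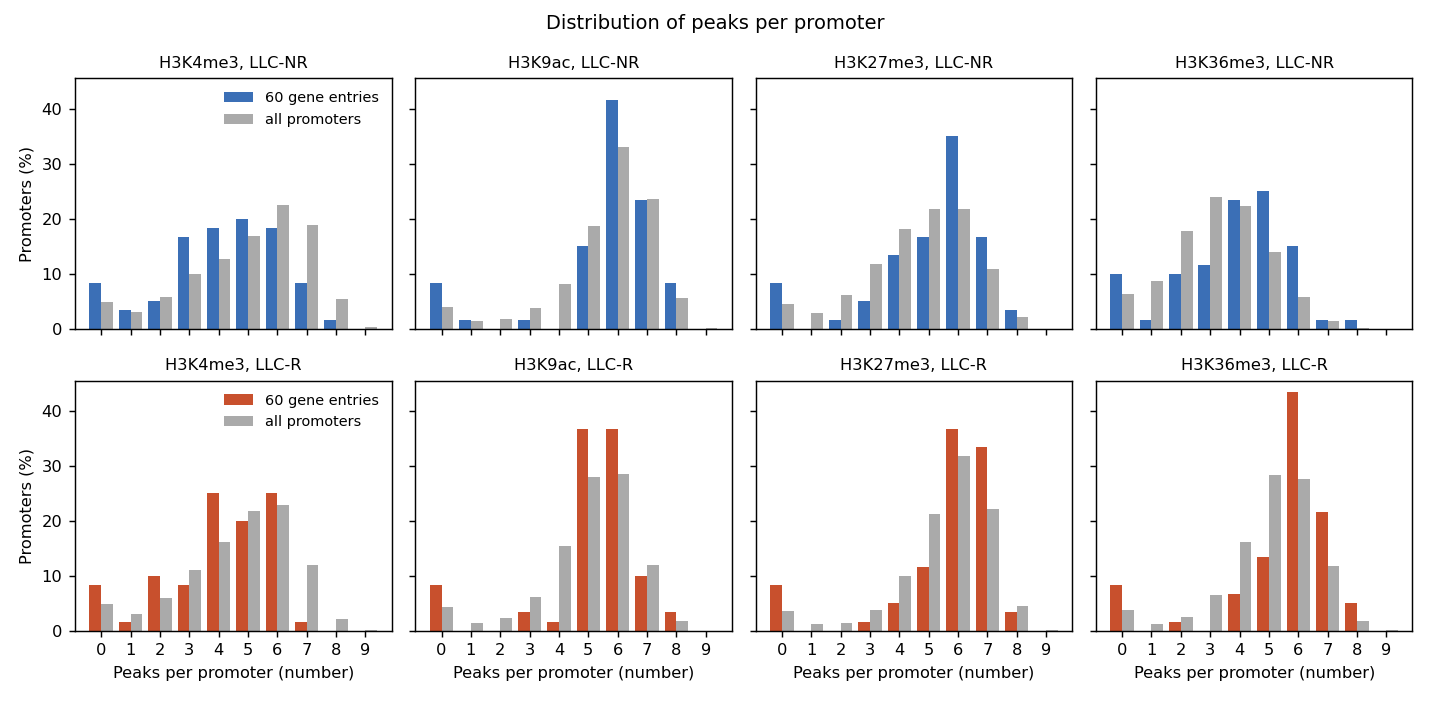
Share of promoters (vertical axis, percent) with 0 to 9 peaks (horizontal axis) for each mark (columns) and line (rows); colored bars are the 60 gene entries and gray bars all 22367 promoters. The colored bars include 5 unmeasurable promoters at 0, with which the H3K4me3 median is 4 against 5 peaks. Those of H3K27me3 in LLC-NR are highest at 6 peaks (35% of the entries), where all promoters have 21.8%, as they have at 5 peaks.

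Among the inflammatory CC ligands, Ccl2, the main attractant of monocytes, held 7 and 5 H3K4me3 peaks, 6 and 5 for H3K9ac, and 7 and 6 for H3K27me3. Ccl5, an attractant of T cells and monocytes, held 4 H3K4me3 and 5 H3K27me3 peaks in each line, and 6 and 5 for H3K9ac. Ccl3 and Ccl4, the macrophage inflammatory proteins, held 6 and 5 (Ccl3) and 4 and 3 (Ccl4) H3K4me3 peaks. These promoters are LCPs, apart from the ICP of Ccl3, and each held 5 or more H3K27me3 peaks in both lines.

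Among the neutrophil attractants that bind Cxcr2, Cxcl1 held 6 H3K4me3 peaks in each line, Cxcl2 held 6 and 5, and Cxcl5 held 3 and 4. All of them had fewer H3K9ac peaks in LLC-R, with 7 and 5 at Cxcl1, 7 and 5 at Cxcl2, and 8 and 5 at Cxcl5, in a library whose mean over all promoters was also lower (5.51 and 4.96). Cxcr2 itself, the neutrophil receptor, held 5 and 4 H3K4me3 peaks and 7 H3K27me3 peaks in each line. None of these promoters passed 1.5-fold for any promoter mark.

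The interferon-induced ligands of Cxcr3 differed from each other. Cxcl9 held 8 and 4 H3K4me3 peaks, the 8 being the most of any member in LLC-NR, whereas Cxcl10, whose TSS lies 20.8 kb away, held 4 and 5. Cxcl10 was the only one of the pair below the H3K27me3 mean in both lines, with 4 peaks in each, against 6 and 7 at Cxcl9. Cxcr3, their receptor on activated T cells, was among the members with fewest H3K4me3 peaks, 3 and 2.

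In the Cxcl12 axis, which retains stem cells and lymphocytes in stroma, Cxcl12 held 3 and 4 peaks of H3K4me3, 3 and 5 of H3K9ac and 6 in each line of H3K27me3. Cxcr4 held 7 and 6 H3K4me3 peaks and 4 and 7 of H3K27me3, and Cxcr7, the atypical receptor that scavenges Cxcl12, held 6 H3K4me3 peaks in each line. Summed over both lines, the most H3K4me3 peaks were at Ccr9, the receptor of gut-homing T cells for Ccl25, with 7 in each line. The TSS used for Ccr9 is that of 1 of 4 transcripts in a gene model of 103533 bp. No RefSeq start of Ccr9 was found in this promoter, so its value rests on that gene model. Next were Cxcr4 and Ccrl2, which binds chemerin without signaling, with 7 and 6 each.

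The receptors had a slightly higher median than the ligands for H3K4me3, with 5 peaks in each line over 22 receptors. The median over the 38 ligands was 4 in each line, and without the 6 ligands of mostly repeated words it was 4 and 4.5. Ccr2, the monocyte receptor of Ccl2, held 6 peaks each of H3K4me3, H3K9ac and H3K27me3 in both lines. Ccr1 held 6 H3K4me3 peaks in both lines, Ccr7 held 4 and 5, and Cx3cr1, a receptor of monocytes and microglia, held 6 and 4. H3K9ac reached the mean in 16 of 22 receptors for LLC-NR and in 22 of 22 for LLC-R. Their median was 6 in both lines, and the smallest whole number at or above the mean was 6 and 5, so the 6 receptors that differ held 5 peaks in LLC-NR.

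To compare the lines, each number was divided by the mean over all promoters of its library, 0.1 was added, and the log2 ratio of LLC-R to LLC-NR was taken, with 1.5-fold as the limit for a call. For H3K4me3, 7 members were higher in LLC-R (11.7%) and 6 of 60 were lower, against 8.63% and 7.66% of all promoters. Those higher were Ccr6, Ccl22, a Ccl25 entry (ENSMUSG00000023235), Cx3cl1, Cxcl17, Ccl6 and Cxcr1. Those lower were Xcr1, Ccl8, Ccl17, Cxcl9, Ccl7 and Cxcl14. Scaling by the uniquely mapped reads of each library instead moved the median log2 ratio of all promoters to 0.24 from 0.08. It gave 13 higher and 6 lower members of 60, against 14.7% and 5.60% of all promoters.

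Ccr6, the receptor of Th17 cells and B cells for Ccl20, had the highest ratio. Its promoter, with the TSS at position 8429077 of chromosome 17, held 1 and 5 H3K4me3 peaks (log2 ratio of 1.97). Its ligand Ccl20 held 3 and 4. The Ccl25 entry above, a ligand of thymus and gut, held 2 and 5 (1.23), but its call was lost with the most upstream TSS (0.088) and with a promoter of 1 kb to each side (0.36). The single Ccr6 peak of LLC-NR had its midpoint at -32 bp, and those of LLC-R were at -773, -612, -129, 33 and 401 bp. The 6 H3K27me3 midpoints of Ccr6 were at -787, -607, -450, -129, 33 and 379 bp in LLC-NR and at -788, -609, -448, -132, 32 and 379 bp in LLC-R, at most 3 bp apart. All 5 H3K4me3 peaks of LLC-R lay within 22 bp of an H3K27me3 midpoint of the same line, and the single one of LLC-NR lay 65 bp from the nearest. Over the family, 106 of 245 H3K4me3 peaks of LLC-R (43.3%) and 104 of 251 of LLC-NR (41.4%) had an H3K27me3 midpoint within 30 bp, against 40.9% and 36.6% over all promoters. The positions at Ccr6 were compared after its numbers had been seen.

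Xcr1, the receptor of cross-presenting dendritic cells, had the lowest ratio, with 5 and 1 H3K4me3 peaks (log2 ratio of -1.82) around its TSS at 123771246 of chromosome 9, while its ligand Xcl1 held 2 and 3. Of its 1.5-kb promoter, 22.3% of the 36-base words are repeated. Ccl8, a monocyte attractant with its TSS at 81928687 of chromosome 11, held 6 and 2 H3K4me3 peaks (-1.31) and 7 H3K27me3 peaks in each line. Ccl7, a monocyte attractant beside Ccl2, held 6 and 3 (-0.81), Cxcl9 had a log2 ratio of -0.84, and Cxcl14, an epithelial chemokine, held 4 and 2 (-0.78).

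Counts of whole peaks make small numbers jump. The 1.5-fold limit was passed by 1 peak at Cxcl17, an attractant of the lung mucosa, with 1 and 2 H3K4me3 peaks, and by 2 peaks at Ccl6 and at Cxcr1, each with 4 and 6. A difference of at least 4 H3K4me3 peaks, a limit chosen after the values were seen, was found at 2 members upward (Ccr6 and Ccl22) and at 4 downward (Xcr1, Ccl8, Ccl17 and Cxcl9). Over all promoters, 0.505% had that many more and 1.03% that many fewer. The members named are LCPs or ICPs, while 53.9% of all promoters are HCPs, and shares within a CpG class were not taken. At Cxcl13, the B cell attractant, and its receptor Cxcr5, H3K4me3 was 4 and 5 and 3 and 4 peaks, and at Cxcl16 and Cxcr6, which hold T cells in tissues, it was 6 in both lines and 4 in both lines.

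**Figure D3:**
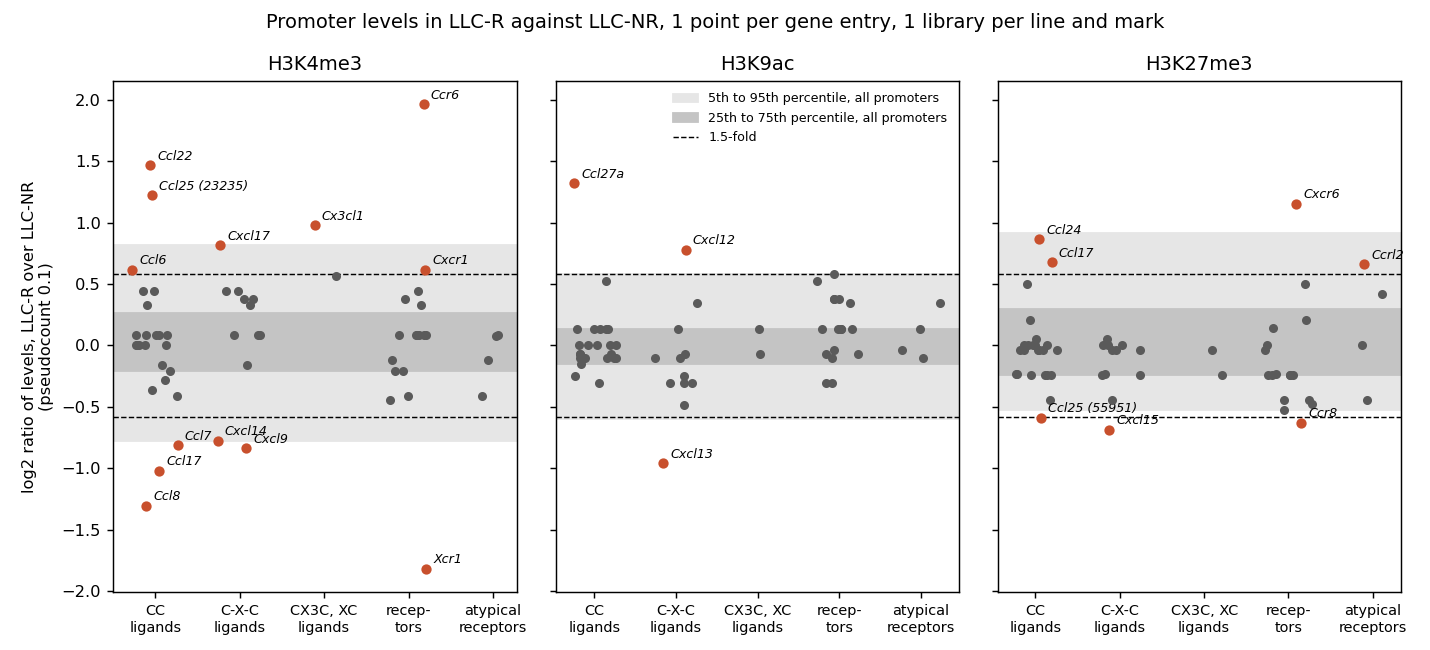
Log2 ratio of promoter levels in LLC-R over LLC-NR (vertical axis, pseudocount of 0.1) for 59 of the 60 gene entries (points, spread sideways for legibility) by class (horizontal axis) and mark (panels); dark and light gray bands hold the central 50% and 90% of all 22367 promoters, dashed lines mark 1.5-fold, and red points are past it. For H3K4me3, 13 points are red and Ccr6 (1.97) and Xcr1 (-1.82) lie farthest out, while H3K9ac has 3 red points and H3K27me3 has 7.

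Neighboring ligand genes on chromosome 8 differed in opposite directions. Ccl22 and Ccl17, both ligands of Ccr4 that draw regulatory T cells and Th2 cells, have their TSSs at 97269490 and 97334353, 64.9 kb apart, with that of Cx3cl1 between them at 97295909. Ccl22 held 2 H3K4me3 peaks for LLC-NR, at -870 and -551 bp, and 6 for LLC-R, from -761 to 445 bp (log2 ratio of 1.47). Cx3cl1 held 3 and 6 (0.98). Ccl17 held 7 for LLC-NR, from -971 to 410 bp, and 3 for LLC-R, at -805, -441 and 129 bp (-1.02). Thus Ccl22 and Cx3cl1 had more H3K4me3 peaks in LLC-R and Ccl17, which ends the trio, had fewer. H3K27me3 at Ccl17 was 4 and 8 peaks (0.68), and it was 6 and 7 at both Ccl22 and Cx3cl1. Over the whole span of the 3 genes the H3K4me3 peaks numbered 177 and 181, with a log2 ratio of shares of 0.04 (95% counting interval from -0.27 to 0.34). The region as a whole thus showed no difference in H3K4me3 beyond counting error. Ccr4 itself held 5 H3K4me3 peaks in each line.

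**Figure D4:**
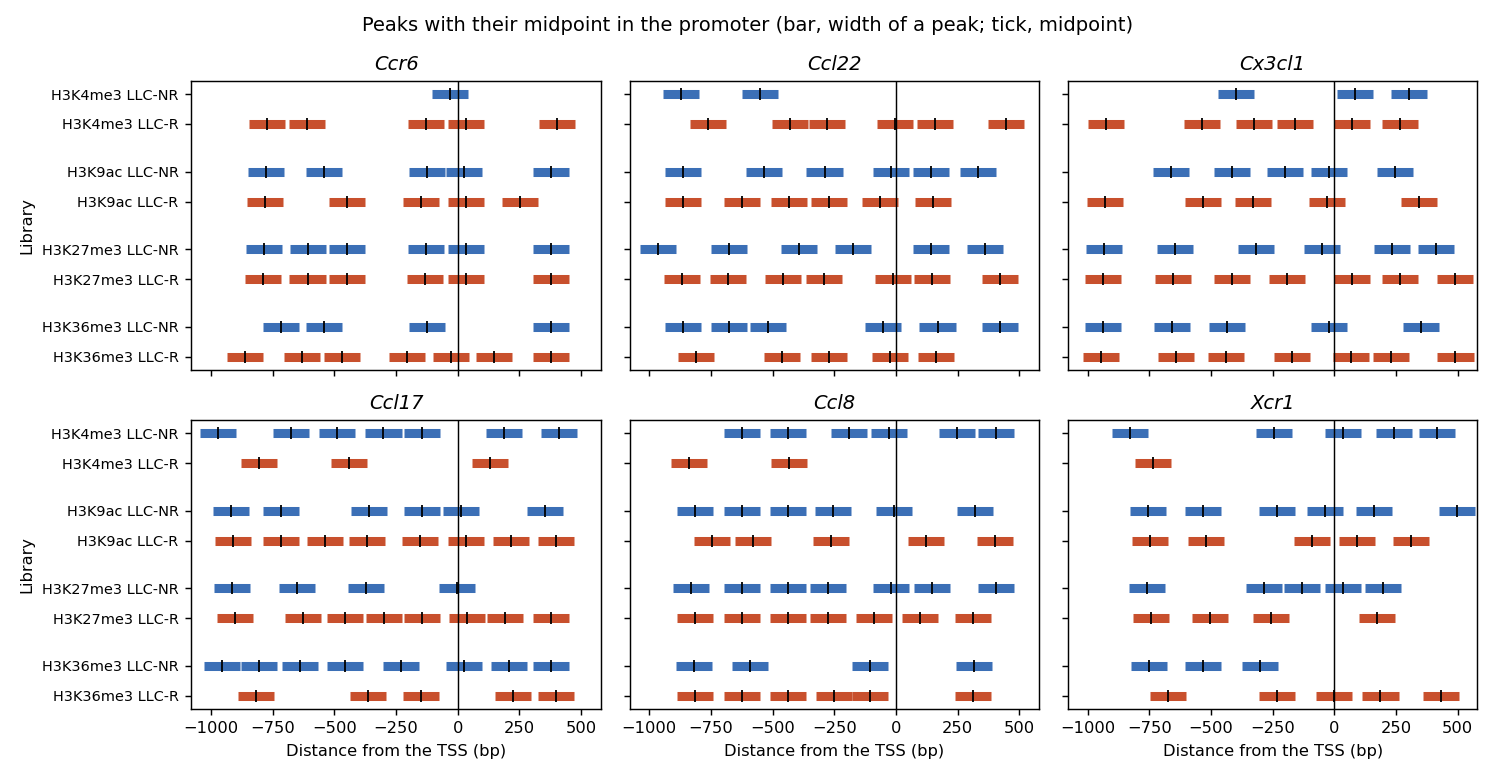
Peaks with their midpoint in the promoters of Ccr6, Ccl22, Cx3cl1, Ccl17, Ccl8 and Xcr1; the horizontal axis is the distance from the TSS in bp along the direction of the gene, each row is a library (blue LLC-NR, red LLC-R), bars are 147 bp wide and ticks mark midpoints. In the H3K4me3 rows Ccr6 has 1 and 5 peaks and Xcr1 has 5 and 1, and the H3K27me3 rows of Ccr6 coincide to within 3 bp.

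With the same scaling, fewer members passed the limit for H3K9ac and H3K27me3. For H3K9ac, Cxcl12 (3 and 5 peaks, log2 ratio of 0.78) and Ccl27a (1 and 3, 1.32) were higher in LLC-R and Cxcl13 (7 and 3, -0.96) was lower, which is 2 and 1 of 60 against 4.5% and 6.8% of all promoters. For H3K27me3, Cxcr6 (2 and 6 peaks, 1.16), Ccl24 (3 and 7, 0.87), Ccl17 (0.68) and Ccrl2 (3 and 6, 0.66) were higher. Those lower included Cxcl15, a lung ligand (7 and 5, -0.69), Ccr8 (8 and 6, -0.63) and the other Ccl25 entry (ENSMUSG00000055951, 4 and 3, -0.59). In all, 4 members were higher and 4 lower of 60, against 12.4% and 4.82% of all promoters. With scaling by reads the split was 25 higher and 0 lower for H3K9ac, against 45.5% and 1.43% of all promoters. For H3K27me3 it was 0 higher and 46 lower of 60, against 2.83% and 62.1%. The medians over all promoters were 0.55 and -0.75, so both the number of calls and their direction for these marks follow the scaling.

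Promoters were sorted into states by whether H3K4me3 or H3K9ac, and H3K27me3, reached the mean over all promoters of the library. In LLC-NR, 11 members were active (an active mark without H3K27me3), 36 were bivalent (both), 7 were repressive (H3K27me3 alone) and 6 had none, where 29.8%, 48.3%, 8.2% and 13.6% of all promoters were in these states. In LLC-R, 10 were active, 43 bivalent, 1 repressive and 6 had none, against 28.4%, 52.9%, 5.73% and 12.9%. Bivalent members thus made up 71.7% of the family in LLC-R. Among LCPs, 23 and 26 of 37 members were bivalent, against 41.1% and 48.9% of all LCPs. The 6 members with none were those of mostly repeated words.

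Between the lines 16 members (26.7%) differed in state, against 37.9% of all promoters. In all, 5 became active in LLC-R, which is 8.33% against 12.6% of all promoters. Of these, Cxcl15 held 7 and 5 H3K27me3 peaks, Ccr1 held 6 and 5 and Xcr1 held 5 and 4, while Ccl5 and Cxcr5 held 5 in both lines, where the smallest number at or above the mean was 5 and 6. Cxcr5 also held 5 and 7 H3K9ac peaks, below the limit in LLC-NR and above it in LLC-R. The active state was left by 6 of 60, against 14.1% of all promoters, and all of them became bivalent: Ccl17, Ccl24, the Ccl25 entry ENSMUSG00000023235, Ccrl2, Cxcr4 and Cxcr6. They are the 6 members with at least 3 H3K27me3 peaks more in LLC-R, which 13% of all promoters had, and include Cxcr4 (4 and 7), Cxcr6 (2 and 6) and Ccl24, an eosinophil attractant (3 and 7).

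Active in both lines were 5 members (8.33% against 15.8%), namely Ccl7, Cxcl10, Cxcl17 and 1 entry each of Ccl25 and Ccrl1. Of the 7 repressive members of LLC-NR, 6 were not repressive in LLC-R: Ccl26, Ccr6, Cx3cl1, Cxcl12 and Cxcr3 were bivalent and Cxcr5 was active. Over the genome, 1494 of the 1833 promoters repressive in LLC-NR were likewise not repressive in LLC-R. As a share of all entries this is 10% of the family, against 6.68% of all promoters. At Ccl26, Cxcl12 and Cxcr3 the change of state rests on H3K9ac, with 5 and 5, 3 and 5, and 5 and 6 peaks, where the H3K9ac limit was 6 and 5. Ccl20 stayed repressive. Among the 37 LCP members, 6 had, by these limits, an active mark in LLC-R alone or H3K27me3 in LLC-NR alone (Ccl5, Ccr1, Ccr6, Cxcl15, Cxcr3 and Cxcr5), which is 16.2% against 22.9% of all LCPs.

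H3K36me3 in the gene bodies of chemokine genes was close to that of other genes. The medians were 3.06 and 3.96 peaks per kb, against 2.98 and 3.93 over all genes and 2.71 and 3.85 over genes of at most 15 kb. After division by the mean of the library, 4 members were higher in LLC-R by 1.5-fold (6.41% of all genes) and 0 were lower (1.09%). They were Ccl27a (0.21 and 1.25 peaks per kb), Cxcl10 (1.78 and 4.44 peaks per kb, log2 ratio of 0.85), Cxcl17 (1.64 and 3.66, 0.70) and Cxcl12 (1.64 and 3.51, 0.64). Cxcl10 is 2252 bp long, so its values rest on 4 and 10 peaks. H3K27me3 in gene bodies had a median of 3.64 and 4.06 peaks per kb over the members, against 2.71 and 3.78 over all genes.

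The ligand clusters were compared with flanks of the same length and with the genome. On chromosome 11, the 6 genes from Ccl2 to Ccl1 span 270.1 kb (81849073 to 82119192, with Ccl7, Ccl11, Ccl12 and Ccl8 between them), and the 5 genes Ccl5, Ccl9, Ccl6, Ccl3 and Ccl4 span 138.9 kb (83339280 to 83478185). The span of the first owes much to the gene model of Ccl1, which is 129034 bp long and runs to the end of the span from the Ccl1 TSS used here, at 81993314, so the densities, flanks and ratios of this cluster rest on it. H3K27me3 had 3.70 peaks per kb in the Ccl2 cluster in LLC-NR, 1.31-fold the genome, and 3.95 in the Ccl5 cluster, 1.39-fold. In LLC-R the densities were 1.17-fold the genome in each. The flanks of the Ccl2 cluster were at 1.38-fold and 1.36-fold in LLC-NR, above the cluster itself, and those of the Ccl5 cluster at 1.09-fold and 1.27-fold. The log2 ratio of shares was -0.16 (95% counting interval from -0.29 to -0.04) in the Ccl2 cluster and -0.25 (from -0.42 to -0.08) in the Ccl5 cluster.

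The flanks of the Ccl2 cluster, which hold no member, had ratios of -0.21 and -0.21 for H3K27me3, while those of the Ccl5 cluster had 0.03 (from -0.16 to 0.21) and -0.13 (from -0.30 to 0.05). The value of the Ccl2 cluster is thus shared by its surroundings, and over the whole of chromosome 11 the ratio was -0.03. For H3K4me3, H3K9ac and H3K36me3 the intervals of both clusters included 0. The intervals cover counting error only.

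On chromosome 5, the cluster of Cxcl5, Cxcl3, Cxcl15, Cxcl1 and Cxcl2 spans 146.6 kb (91188325 to 91334935). Its densities were from 0.970-fold to 1.10-fold the genome in all 8 libraries, including 0.990-fold and 0.970-fold for H3K27me3 in LLC-NR and LLC-R, and the intervals of all 4 ratios between the lines included 0. The CC clusters of chromosome 11 were thus denser in H3K27me3 than this C-X-C cluster in both lines. Of the 36-base words, 17.3% were repeated in the cluster of chromosome 5 and 6.44% and 6.85% in those of chromosome 11. The flanks of the chromosome 5 cluster were at 1.18-fold and 0.920-fold in LLC-NR and at 1.15-fold and 0.928-fold in LLC-R. Chromosome 11 as a whole had 3.11 and 3.84 H3K27me3 peaks per kb in LLC-NR and LLC-R, against 2.72 and 3.59 on chromosome 5. The other marks of the chromosome 11 clusters were above the genome too. In the Ccl5 cluster (LLC-NR and LLC-R), H3K4me3 was at 1.33-fold and 1.21-fold, H3K9ac at 1.24-fold and 1.22-fold and H3K36me3 at 1.21-fold and 1.14-fold. In the Ccl2 cluster these were 1.08-fold and 1.04-fold, 1.18-fold and 1.19-fold, and 1.05-fold and 1.09-fold. The cluster of Ccl21c, Ccl27b, Ccl19 and Ccl21a on chromosome 4 held 0 peaks in 395.6 kb, and nearly all of its words are repeated.

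**Figure D5:**
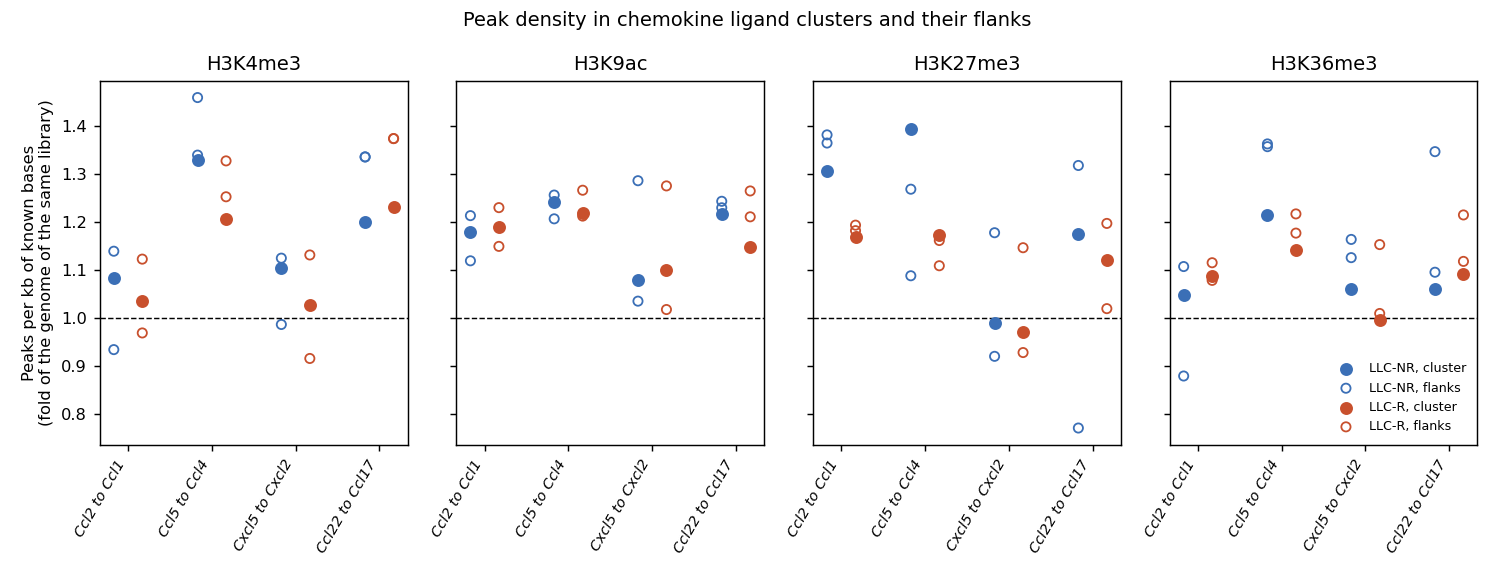
Peak density in 4 ligand clusters (filled circles) and their flanks of equal length (open circles) as fold of the genome of the same library (vertical axis; dashed line at 1), by mark (panels) and line (blue LLC-NR, red LLC-R); the chromosome 4 cluster without peaks is left out. H3K27me3 in LLC-NR is at 1.31-fold and 1.39-fold in the clusters of chromosome 11 and at 0.990-fold in that of chromosome 5.

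Peaks of the same mark coincided less often between the lines in these promoters for H3K4me3 than over the genome. Of 245 H3K4me3 peaks of LLC-R in member promoters, 64 (26.1%) had an LLC-NR midpoint within 30 bp, against 46.8% of peaks in all promoters. The share was 26.1% in LCP members, 27.5% in all LCPs and 55.4% in all HCPs, so it was close to that of other CpG-poor promoters. For H3K9ac the share was 49.7% against 51.2%, for H3K27me3 43.2% against 36.1% and for H3K36me3 29.2% against 26.7%. At Ccl2, all 5 H3K9ac peaks of LLC-R had a partner in LLC-NR, the farthest 24 bp away. At Ccl22, 0 of 6 H3K4me3 peaks had one.

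Of 17 other genes of the pathway, all 17 were found. They include the platelet chemokines Pf4 and Ppbp, the atypical receptors Ccbp2 and Darc, Mif with its receptor Cd74, and the signaling genes Gnai2, Arrb1, Arrb2, Adrbk1, Pik3cg, Pik3r5, Dock2, Elmo1, Rac2, Prex1 and Rgs1. Their medians were 6 and 5 peaks for H3K4me3 as for H3K9ac, and 5 and 6 for H3K27me3. For H3K4me3, 1 passed 1.5-fold upward (Pik3r5, a subunit of PI3K gamma, 4 and 7 peaks) and 3 downward: Adrbk1, the kinase that desensitizes receptors (8 and 4), Darc (4 and 2) and Dock2, which drives leukocyte migration (7 and 4), where 8.63% and 7.66% of all promoters did. For H3K9ac 0 of 17 were higher and 2 lower, against 4.5% and 6.8% of all promoters. For H3K27me3 2 were higher and 1 lower, against 12.4% and 4.82%. In states, 7 and 6 were active, against 29.8% and 28.4% of all promoters, and 10 in each line were bivalent, against 48.3% and 52.9%.

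Markers of the cells an isograft can hold were read in the same way. None of the 9 leukocyte, 5 endothelial, 4 fibroblast and 6 epithelial or lung markers was at 0 for any mark. H3K4me3 at the leukocyte markers summed to 47 and 35 peaks, or 1.06 and 0.845 times the mean of all promoters. Of the 9, 0 were higher by 1.5-fold and 3 were lower (Ptprc, Cd3e and S100a8), where 8.63% and 7.66% of all promoters were. The endothelial Tek (log2 ratio of 0.74) and the epithelial Epcam (0.62) were higher, and no other marker outside the leukocyte list passed the limit for H3K4me3. The sums were 25 and 22 for endothelial markers, 22 and 24 for fibroblast markers and 33 and 32 for epithelial and lung markers. Since most receptors of the family are used by leukocytes, these values stand beside the H3K4me3 results above, and their part in them was not tested. At 6 ubiquitous genes the promoters held 36 and 34 H3K4me3 peaks.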

How the data were processed

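Per the labels and the methods, the authors sequenced chromatin immunoprecipitation libraries on an Illumina HiSeq, aligned reads to mm9 with Bowtie 0.12.7 (up to 2 mismatches, uniquely mapped reads only) and called peaks with GeneTrack, whose settings are not given in the sources used here. The deposited lists hold only peak positions, so enrichment of a peak cannot be read from them, and how many peaks a library has depends on its depth. No input library was used here.

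From the positions, peak midpoints were counted in promoters (GENCODE vM1), gene bodies and clusters, which are runs of at least 3 members with at most 500 kb between neighbors. For a gene with several starts, the one shared by most transcripts was used, and the most upstream one on a tie. In 21 of 60 entries, each with more than 1 transcript, no start was shared, so the most upstream one was used. Levels were divided by the library mean over all promoters. Alternatives scaled by all peaks, by the background windows or by the uniquely mapped reads that the study lists. Intervals for clusters are exact conditional binomial intervals at 95%, for counting error only. HCP, ICP and LCP followed the study's rule on G/C content and CpG ratio in 500-bp intervals. Repeated words are 36-mers that occur more than once in mm9 on either strand.

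Members, gene lists and the promoters printed were chosen with earlier results of these data known. Genes were named by ligand and receptor axes, by H3K4me3 calls at 1.5-fold, by state changes and by the extremes of H3K4me3. Further members were named for H3K9ac, H3K27me3 and gene body values or to complete a group. Samples were grouped by line and mark from the labels. Since there was 1 library per group, no test was run, and the spread between animals is unknown. Python 3.11.15, NumPy 2.4.6, pandas 2.3.3, SciPy 1.17.1, Numba 0.67.0 and Matplotlib 3.10.9 were used, and the counting was tested on simulated data. The values of 1 member, which enters the counts over the family, and of its cluster are not reported here.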

Additional observations from a re-analysis of the deposited data

How the results depend on the processing

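The number of H3K4me3 calls depended on the settings more than the members with the largest differences did. Ccr6, Ccl22, Ccl17, Ccl8 and Xcr1 kept their H3K4me3 calls in all 8 alternatives, while Ccl6 and Cxcr1 kept theirs in 2. The members that kept all calls are among those with the largest ratios, which pass a limit most easily. The other scalings, pseudocount and limit reuse the same counts of the same libraries, so a kept call is no replicate check. With scaling by uniquely mapped reads, the members higher in LLC-R were 13 for H3K4me3, 25 for H3K9ac and 0 for H3K27me3, against 14.7%, 45.5% and 2.83% of all promoters. Those lower were 0 for H3K9ac and 46 for H3K27me3, against 1.43% and 62.1%. H3K27me3 reversed to -0.089 at Ccl17 and to -0.086 at Ccrl2. The log2 ratios of the Ccl2 cluster became 0.20, 0.70, -0.93 and -0.72 for H3K4me3, H3K9ac, H3K27me3 and H3K36me3, those of the Ccl5 cluster 0.13, 0.66, -1.02 and -0.86, and those of the Cxcl5 cluster 0.16, 0.71, -0.80 and -0.86. This scaling adds the log2 ratio of peaks to reads of each library pair by construction.

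With a pseudocount of 0.5, 4 members were higher for H3K4me3, 1 for H3K9ac and 2 for H3K27me3, and 0 were lower for H3K27me3. With a limit of 2-fold, 3 were higher and 3 lower for H3K4me3, 1 higher and 0 lower for H3K9ac, and 1 higher and 0 lower for H3K27me3. With promoters of 1 kb to each side, 3 were higher and 3 lower for H3K4me3, and 2 higher and 2 lower for H3K27me3. These promoters hold more bases, and their medians were 6 and 6 peaks for H3K4me3, 8 and 7 for H3K9ac, 8 and 8 for H3K27me3 and 6 and 8 for H3K36me3. Counting any peak that overlaps a promoter by 1 bp left 1 member higher and 0 lower for H3K9ac and gave a median of 7 H3K9ac peaks in LLC-NR. Without the members of mostly repeated words, 1 member was higher for H3K9ac.

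For states, promoters of 1 kb to each side gave 7 active members in LLC-NR, 8 that became active and 3 that left the active state. Overlap by 1 bp gave 7 active members in LLC-NR and 6 in LLC-R. Requiring active marks at 2 times the mean, the limit in the study's methods, gave 0 active and 0 bivalent members in either line. With it, 0 became active and 0 left, because saturated promoters cannot hold that many peaks. The study applied that limit to tag counts and not to numbers of peaks. Apart from the by-construction shifts, the cause of these differences was not tested. No replicate could be left out, and no value here has an error between animals. No paired analysis was possible because each group holds 1 library and no result comes from a test.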
